A study of Caenorhabditis elegans with 12 samples.

Results

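Transcripts for most subunits of the proteasome declined in *Caenorhabditis elegans* embryos between the time before a heat pulse that induced HLH-1, the muscle-determining bHLH factor of the nematode, and 6 h after it. The genes were chosen by name: every probe set with a single gene symbol that begins with *pas-*, *pbs-*, *rpn-* or *rpt-* followed by a digit. This rule found 33 genes with 39 probe sets among the 17118 genes that have a probe set of their own on the array. They comprise 14 genes of the 20S core, with 7 *pas* and 7 *pbs* genes, and 19 genes of the 19S regulatory particle, with 6 *rpt* and 13 *rpn* genes. All 33 were bright enough to be tested. Where a gene had several probe sets, which was the case for 6 genes, it was read at the brightest.

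The proteasome degrades proteins that carry chains of ubiquitin. Its core is a hollow cylinder of stacked rings: the outer rings of alpha subunits, encoded by *pas* genes, form the gate, and the inner rings of beta subunits, encoded by *pbs* genes, carry the proteolytic sites. The regulatory particle caps the core. Its base holds a ring of ATPases, encoded by *rpt* genes, that unfolds the substrate, and its base and lid hold the *rpn* subunits that bind ubiquitin, remove it and scaffold the particle. In early nematode embryos the complex is known for the timed destruction of maternal proteins and cell cycle regulators, and it is loaded in part as maternal mRNA and protein.

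All samples came from the strain KM267, which carries *hlh-1* under heat shock control, and each held about 80 embryos collected at the 1- and 2-cell stages. Embryos of the 0 h group were taken before any heat pulse. Those of the 2, 4 and 6 h groups were left for 60 min, heated to 34 °C for 30 min and kept at room temperature for the hours named. Each group had 3 independent samples, lettered A, B and C, which gave 12 arrays. No embryos that lacked the transgene and received the pulse were analysed here, so HLH-1, the heat pulse and the passage of developmental time cannot be separated from each other here: against 0 h they cannot be told apart. RNA was taken from whole embryos, so fewer cells of a type and less RNA per cell cannot be told apart either.

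The values are MAS5 signals, a linear measure of hybridization in arbitrary units that the authors scaled to a common mean on each array. Dim probe sets were set aside: 18264 of 22548 had 3 or more arrays above 69.7, taken as the reference level, and were tested. Tests were made on the log2 scale with limma over all tested probe sets. A gene is called where its adjusted p is under 0.05 and its signal differs by 1.7-fold or more, as raised if higher and as lowered if lower at the later time. Folds are ratios of means on the log2 scale. Errors beside log2 changes are standard errors from that fit, with 3 arrays in each group. The probe set of *hlh-1* itself read 196 to 348 at 0 h and 2802 to 4023 at 2 h. The 10 body wall muscle markers were all raised at 6 h, and their summed signal went from between 810 and 2801 to between 274030 and 343930. Of the 10 germ line and maternal markers 7 were lowered and none was raised, and their summed signal went from between 34545 and 41456 to between 904 and 5560. Calls at 6 h were mixed or few for the remaining markers, with 2 raised and 1 lowered of 5 for pharyngeal muscle, 1 and 3 of 7 for intestine, 2 and 0 of 7 for neurons, and 2 and 1 of 6 for epidermis. The summed signal of the intestine markers fell, from between 32806 and 42614 to between 1335 and 1681. In this sum *end-1* went from a mean of 29306 to 252. The sum for pharyngeal muscle rose, from between 666 and 882 to between 1650 and 2020. The sums for neurons and epidermis overlapped between the times. Most of the neuron sum came from *snb-1*, with means of 8682 at 0 h and 6986 at 6 h, which was not called. The raised neuron genes were *unc-47*, from a mean of 46.9 to 1318, and *unc-64*, from 48.3 to 506. The median log2 change of the 7 tested neuron markers at 6 h was 1.94. These shifts in cell markers took place over the same hours as the changes in the proteasome genes, and their part in the results below was not tested.

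At 6 h, 19 of the 33 proteasome genes were lowered against 0 h and 1 was raised, while 13 did not pass the test. Over the whole array 15.6% of tested probe sets were lowered and 21.7% were raised. The shares among proteasome genes were 57.1% lowered in the core (8 of 14) and 57.9% in the regulatory particle (11 of 19). The median log2 change was -0.90 over the 33 genes, -0.82 over the core and -1.04 over the regulatory particle, beside 0.31 over all tested probe sets. Measured from that general shift, the medians were -1.21, -1.13 and -1.35. For 26 genes, or 78.8%, all 3 arrays at 6 h lay below all 3 at 0 h, beside 20.2% of all tested probe sets. The exceptions to the downward direction were *rpn-1*, which was raised, and *pas-7* and *rpt-6*, with values of 0.19 ± 0.29 and 0.13 ± 0.24 that did not pass the test. If each array is scaled to a common median, the median over the array becomes -0.07 and the calls over the array turn from 3964 raised and 2858 lowered to 3062 raised and 3544 lowered. Under that scaling 28 proteasome genes were lowered.

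**Figure D1:**
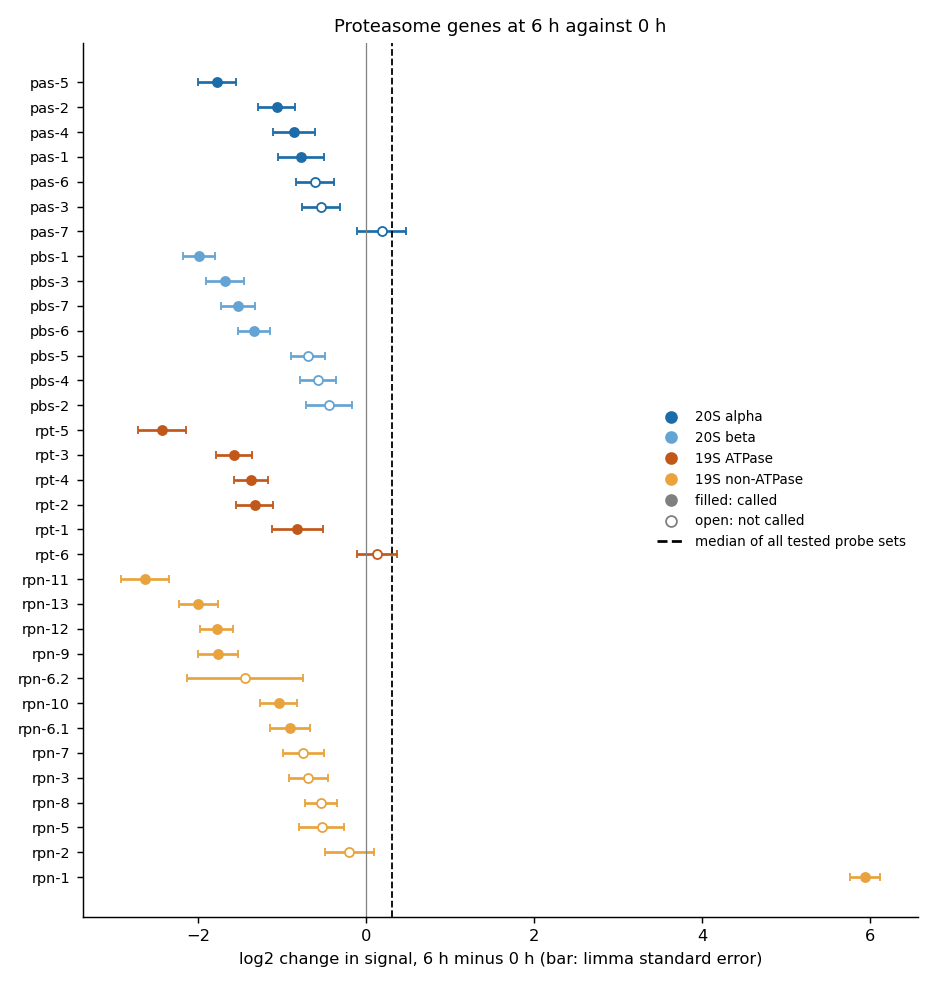
The log2 change in signal at 6 h against 0 h (x axis) is plotted for each of the 33 proteasome genes (y axis), with bars for the limma standard error from 3 arrays in each group, filled points for called genes and a dashed line at 0.31, the median of all tested probe sets. All but 3 points lie left of 0, and *rpn-1* stands alone at 5.94.

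Among the alpha subunits, which form the gate of the core, 4 of 7 genes were lowered at 6 h. The largest decrease was that of *pas-5*. Its signal was 8609, 6969 and 7910.4 in replicates A, B and C at 0 h, 1604, 2059.5 and 2067 at 2 h, 2209, 2504 and 2368 at 4 h, and 3496, 1752 and 1932 at 6 h. Every later array lay below all 0 h arrays, with the lowest mean at 2 h. The log2 change was -2.04 ± 0.23 at 2 h (adjusted p = 5.85e-07) and -1.78 ± 0.23 at 6 h (adjusted p = 1.73e-06).

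A smaller decrease of the same timing was seen for *pas-2*. Its signal was 2506, 1986 and 2158 at 0 h, 1199, 1146 and 1373 at 2 h, 1085, 1402 and 869.6 at 4 h, and 1047, 903 and 1249.9 at 6 h. It was lowered in each comparison with 0 h, by 0.84 ± 0.22 at 2 h and by 1.06 ± 0.22 at 6 h on the log2 scale (adjusted p = 0.00642 and 0.000503, limma). The call at 2 h was lost without 0 h replicate A, where the change was -0.74 and fell short of the fold.

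By contrast, *pas-4* declined late. Its signal was 1287, 1157 and 1034 at 0 h, 1373, 1335 and 1093 at 2 h, 980.4, 1298 and 766 at 4 h, and 864, 524 and 574 at 6 h. The arrays of 2 and 4 h overlap those of 0 h, whereas the 6 h arrays lie below them, with a log2 change of -0.86 ± 0.25 (adjusted p = 0.00836). Without 6 h replicate B the change was -0.71 and fell short of the fold.

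The remaining alpha subunits changed less. The fourth lowered gene was *pas-1*, with a log2 change of -0.78 ± 0.27 at 6 h (adjusted p = 0.0282), a call that was lost when 0 h replicate A, B or C or 6 h replicate B or C was left out (adjusted p = 0.0517 to 0.0861, limma). It was also lost when the 2 time points were fitted alone (adjusted p = 0.0605, limma). The values for *pas-3* and *pas-6* were -0.53 ± 0.23 and -0.61 ± 0.23, and neither was called. No change passed the test for *pas-7* at any time, and its signal ranged from 341 to 561 at 0 h and from 350.1 to 608 at 6 h.

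All 7 beta subunit genes had 6 h arrays below every 0 h array, beside 20.2% of all tested probe sets, and 4 of the 7 were lowered. The catalytic members, orthologs of the yeast subunits with caspase-like, trypsin-like and chymotrypsin-like activity, are *pbs-1*, *pbs-2* and *pbs-5*. The signal of *pbs-1* was 14143, 11219 and 13528 at 0 h, 7959, 8761 and 9859 at 2 h, 7775, 11011 and 7923 at 4 h, and 4108, 2851 and 2935 at 6 h. The main decrease came after 4 h, and no 6 h array reached the lowest array of any earlier time. The log2 change was -1.99 ± 0.20 against 0 h (adjusted p = 4.28e-08) and -1.43 ± 0.20 against 4 h (adjusted p = 1.59e-05).

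The other catalytic subunits moved less. The signal of *pbs-2* was 546, 649 and 614 at 0 h, 552, 757 and 631 at 2 h, 369, 664 and 408 at 4 h, and 518, 376 and 443 at 6 h. Its change of -0.45 ± 0.28 at 6 h did not pass the test (adjusted p = 0.227), although the 6 h arrays lay just under the 0 h arrays. For *pbs-5* the signal was 2118, 1962 and 2337 at 0 h, 980.4, 1205 and 1310.4 at 2 h, 1312, 1385 and 1383 at 4 h, and 1501, 1066 and 1446 at 6 h. The mean was lowest at 2 h, where the gene was lowered, at -0.88 ± 0.20 (adjusted p = 0.00234), and the values of -0.65 ± 0.20 at 4 h and -0.69 ± 0.20 at 6 h missed the fold and were not called. Without 2 h replicate A the change at 2 h was -0.76 and also missed the fold.

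Of the beta subunits without a catalytic site, *pbs-3*, *pbs-6* and *pbs-7* were lowered at 6 h. The signal of *pbs-3* was 3944, 3357 and 3690.2 at 0 h, 2037, 2111 and 1546 at 2 h, 1696, 1951 and 1339.9 at 4 h, and 1573, 1020.5 and 927 at 6 h. The groups from 2 h onward lay below all 0 h arrays, with log2 changes of -0.96 ± 0.23, -1.15 ± 0.23 and -1.68 ± 0.23 (adjusted p = 0.00271, 0.000391 and 3.42e-06). A dimmer probe set of the gene read 2025, 1840.1 and 1616 at 0 h, 916, 906 and 934 at 2 h, 1266, 1352 and 1125 at 4 h, and 979, 1018 and 865 at 6 h. It was also lowered at 2 and 6 h, by 0.99 ± 0.20 and 0.93 ± 0.20 on the log2 scale, but not called at 4 h.

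The signal of *pbs-7* was 12145, 9172 and 10694 at 0 h, 5683, 7474 and 5830.1 at 2 h, 6189, 7118 and 6088 at 4 h, and 4767, 2719 and 3874 at 6 h. Each group from 2 h onward lay below all 0 h arrays, and the change at 6 h was -1.52 ± 0.21 (adjusted p = 3.55e-06). Its other probe set read 6645, 5636 and 6202 at 0 h, 3010.4, 3145 and 2764 at 2 h, 3300.3, 3747 and 3654 at 4 h, and 2179, 1631 and 2007 at 6 h. Here the decrease was called at 2 and 4 h too, while the brighter set, at -0.76 and -0.72, fell just short of the fold. In *pbs-6* the log2 change was -1.004 ± 0.19 at 2 h and -1.33 ± 0.19 at 6 h, and at 4 h the value of -0.57 ± 0.19 was not called. The value for *pbs-4* at 6 h was -0.57 ± 0.21 and missed the fold.

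In the ATPase ring, whose members unfold substrates and open the gate, 5 of 6 genes were lowered at 6 h. The largest decrease was that of *rpt-5*. Its signal was 1598, 1277 and 1829 at 0 h, 1162, 1324 and 1599.7 at 2 h, 886, 704 and 1197 at 4 h, and 439.7, 284 and 189.9 at 6 h. The 2 h arrays overlap those of 0 h and the 6 h arrays lie below all others, with a log2 change of -2.43 ± 0.29 (adjusted p = 5.67e-07). At 4 h the value was -0.77 ± 0.29 (adjusted p = 0.0465), and this call was lost when 1 of 8 arrays was left out, namely 0 h replicate A or C, 2 h replicate A, B or C, 4 h replicate A or B and 6 h replicate B (adjusted p = 0.0504 to 0.196, limma). It was also lost under quantile normalization, without the filter on dim signals and with a replicate block (adjusted p = 0.0518 to 0.0592, limma). Without the variance trend and robust estimation it was lost too (adjusted p = 0.14, limma).

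A late decrease was also seen for *rpt-3*. Its signal was 8870.2, 7272 and 9769 at 0 h, 8007, 9364 and 12867 at 2 h, 6004, 7705 and 6952 at 4 h, and 3774, 2777 and 2314 at 6 h. Only the 6 h arrays lie wholly below those of 0 h, and the change was -1.57 ± 0.21 against 0 h (adjusted p = 4.24e-06) and -1.24 ± 0.21 against 4 h (adjusted p = 0.000226). The signal of *rpt-4* was 5952, 5115 and 6386 at 0 h, 3410, 3837 and 4252 at 2 h, 3552, 4575 and 3802 at 4 h, and 2909.7, 1777 and 2182 at 6 h. Each group from 2 h onward lay below all 0 h arrays. The value of -0.60 ± 0.20 at 2 h missed the fold, and the gene was lowered by 1.37 ± 0.20 at 6 h (adjusted p = 1.05e-05).

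For *rpt-2* the signal was 2409, 2096 and 2251 at 0 h, 1246, 1328 and 1506 at 2 h, 1140.5, 1296 and 1638 at 4 h, and 1193, 809 and 747 at 6 h. Its other probe set read 1637, 1396 and 1472 at 0 h, 995, 1153 and 978 at 2 h, 882, 781 and 992 at 4 h, and 844, 662 and 742 at 6 h. Both were lowered at 6 h, by 1.33 ± 0.22 and 1.01 ± 0.21 on the log2 scale (adjusted p = 4.63e-05 and 0.000507, limma), and they differ in the call at 4 h, where the values of -0.74 and -0.77 lie on either side of the fold.

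The signal of *rpt-1* was 3140.3, 2798 and 4680 at 0 h, 1342, 2759 and 3835 at 2 h, 3479, 3710.2 and 2906 at 4 h, and 2446, 1856 and 1652 at 6 h. Its other probe set read 1372, 1419.6 and 1344 at 0 h, 1348, 1313 and 1546 at 2 h, 1194, 1088 and 1573 at 4 h, and 993, 823 and 859 at 6 h. In both the 6 h arrays lie below those of 0 h. The change was -0.82 ± 0.30 in the brighter set (adjusted p = 0.0413), which was called, and -0.63 ± 0.21 in the other (adjusted p = 0.0181), which missed the fold. The call was lost without 0 h replicate A or C, 2 h replicate B, 4 h replicate A, B or C, or 6 h replicate B or C (adjusted p = 0.0506 to 0.177, limma). It was also lost under quantile normalization (adjusted p = 0.109) and with no variance trend or robust estimation (adjusted p = 0.138, limma). The mean over the probe sets of the gene gave -0.73 and missed the fold.

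The remaining ATPase gene, *rpt-6*, took another course. Its signal was 947, 578.5 and 773 at 0 h, 1681, 1621 and 2254 at 2 h, 1154, 1150.4 and 1718 at 4 h, and 824, 839 and 798 at 6 h. All arrays at 2 and 4 h lay above all 0 h arrays, and those at 6 h fell among them again. It was raised by 1.29 ± 0.24 at 2 h (adjusted p = 0.000276) and by 0.81 ± 0.24 at 4 h (adjusted p = 0.0119) on the log2 scale. The call at 4 h was lost without 0 h replicate B (adjusted p = 0.0804) or 4 h replicate C (adjusted p = 0.0795). It was also lost with no variance trend or robust estimation (adjusted p = 0.0604, limma). Under median scaling and under quantile normalization the change was 0.74 and missed the fold.

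Among the non-ATPase subunits 6 of 13 genes were lowered at 6 h and 1 was raised. The largest decrease of all 33 genes was that of *rpn-11*, the deubiquitinase of the lid that removes ubiquitin chains as the substrate is drawn in. Its signal was 1289, 1197 and 1137 at 0 h, 792, 853 and 1015 at 2 h, 685, 720.2 and 887 at 4 h, and 327, 169.9 and 133 at 6 h. Most of the decrease fell between 4 and 6 h, and no 6 h array came near the lowest earlier one. The log2 change was -2.63 ± 0.29 against 0 h (adjusted p = 2.01e-07) and -1.96 ± 0.29 against 4 h (adjusted p = 3.82e-05).

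The ubiquitin receptor genes *rpn-10* and *rpn-13* were both lowered at 6 h. The signal of *rpn-13* was 2781, 2779 and 2726 at 0 h, 1780.4, 1728 and 1973 at 2 h, 896, 1256 and 1467 at 4 h, and 955, 596 and 583 at 6 h. The groups from 2 h onward lay below all 0 h arrays, and the change was -1.22 ± 0.23 at 4 h (adjusted p = 0.000257) and -1.996 ± 0.23 at 6 h (adjusted p = 4.18e-07). For *rpn-10* the signal was 12532, 7396 and 11387 at 0 h, 6404, 6764 and 8101 at 2 h, 8182, 9685 and 7294 at 4 h, and 6227, 5202 and 3778 at 6 h. Only at 6 h did all arrays lie below those of 0 h, with a change of -1.04 ± 0.22 (adjusted p = 0.00064). Its other probe set read 1619, 1123 and 1848 at 0 h, 834, 878 and 1265 at 2 h, 1274, 1073 and 1136 at 4 h, and 772, 582 and 558 at 6 h, with a change of -1.25 ± 0.24 (adjusted p = 0.000265). The brighter and dimmer sets differ only in the step from 4 to 6 h, which was called in the dimmer at -0.88 and missed in the brighter at -0.75.

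All 8 lid genes other than *rpn-6.2* (*rpn-3*, *rpn-5*, *rpn-6.1*, *rpn-7*, *rpn-8*, *rpn-9*, *rpn-11* and *rpn-12*) had 6 h arrays below every 0 h array, beside 20.2% of all tested probe sets. Of the 8 genes 4 were lowered. Besides *rpn-11*, these were *rpn-12* at -1.78 ± 0.20, *rpn-9* at -1.76 ± 0.24 and *rpn-6.1* at -0.90 ± 0.24. The values for *rpn-7*, *rpn-3* and *rpn-8*, the last being the inactive partner of RPN-11, were -0.75 ± 0.24, -0.69 ± 0.23 and -0.54 ± 0.19, each with an adjusted p under 0.05 and short of the fold.

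The scaffold of the base, *rpn-2*, did not pass the test at any time in its brighter probe set. That set read 816, 591 and 454 at 0 h, 606, 382 and 588 at 2 h, 424, 405 and 458 at 4 h, and 424, 689.7 and 492 at 6 h. The groups overlap throughout, and the change at 6 h was -0.20 ± 0.29 (adjusted p = 0.64). The dimmer set read 182, 45.9 and 179 at 0 h, 20.3, 93.9 and 103 at 2 h, 8, 14.4 and 10.2 at 4 h, and 35.8, 188 and 40.8 at 6 h. None of its 4 h arrays reached the reference level, and the decrease called there (adjusted p = 0.0103) is bounded only as at least 1.89-fold.

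Earlier times were compared with 0 h, and each time with the next, to see when the decrease was measured. At 2 h, 6 of 33 genes were lowered and 4 raised, beside 9.55% lowered and 15.5% raised over the array. The lowered genes were *pas-2*, *pas-5*, *pbs-3*, *pbs-5* and *pbs-6* of the core, 5 of 14, and *rpn-12* of the regulatory particle, 1 of 19. All 4 raised genes belong to the regulatory particle. The arrays at 2 h lay wholly below those at 0 h for 8 core genes and 7 regulatory genes, beside 18.2% over the array. They lay wholly above for 0 core genes, of which 0 were higher at an unadjusted p under 0.05 in limma (3835 of 18264 probe sets over the array), and for 7 regulatory genes, beside 23.8% over the array. These 7 were *rpn-1*, *rpn-3*, *rpn-5*, *rpn-6.1*, *rpn-6.2*, *rpn-7* and *rpt-6*, so 4 of them are lid genes without the *rpn-6.2* paralog. By this order of arrays the lid was split, since its other 4 genes of 8, *rpn-8*, *rpn-9*, *rpn-11* and *rpn-12*, lay wholly below. Its median change was 0.02. By the test 6 of the 8 were not called, with *rpn-5* raised, a call lost in some settings, and *rpn-12* lowered. The median change at 2 h was -0.54 in the core and -0.20 in the regulatory particle, with 0.11 over the array. The difference between the counts of both particles was not tested.

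At 4 h, 7 genes were lowered and 2 raised, beside 11.9% and 17.1% over the array. In the core *pas-2*, *pas-5* and *pbs-3* were lowered, and in the regulatory particle *rpn-9*, *rpn-12*, *rpn-13* and *rpt-5*. The medians were -0.52 and -0.29. Between 2 and 4 h 1 gene was lowered, *rpn-6.2*, and 0 were raised by the limma test, beside 7.35% and 6.90% over the array. At an unadjusted p under 0.05, 6 were lower and 2 higher, beside 2381 and 2361 of 18264 probe sets.

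In the step from 4 to 6 h 11 of 33 genes were lowered and 0 raised by the limma test, beside 8.39% and 7.73% over the array. Of these 11 called genes the regulatory particle held 9, out of 19, and the core 2, *pbs-1* and *pbs-7*, out of 14. The 9 include *rpn-1* and *rpn-6.2*, which were raised at 2 h. Without this pair, a choice made after their values were seen, 7 of 17 regulatory genes were lowered. No alpha subunit was called. At an unadjusted p under 0.05, 24 of the 33 genes were lower and 0 higher, beside 2505 and 2564 of 18264 probe sets over the array. The arrays at 6 h lay wholly below those at 4 h for 14 regulatory genes and 4 core genes, beside 14.7% over the array. The median change in this step was -0.77 in the regulatory particle and -0.27 in the core, with 0.13 over the array. The count of lowered genes for this step was 23 when arrays were scaled to a common median and 6 without the variance trend and robust estimation.

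**Figure D2:**
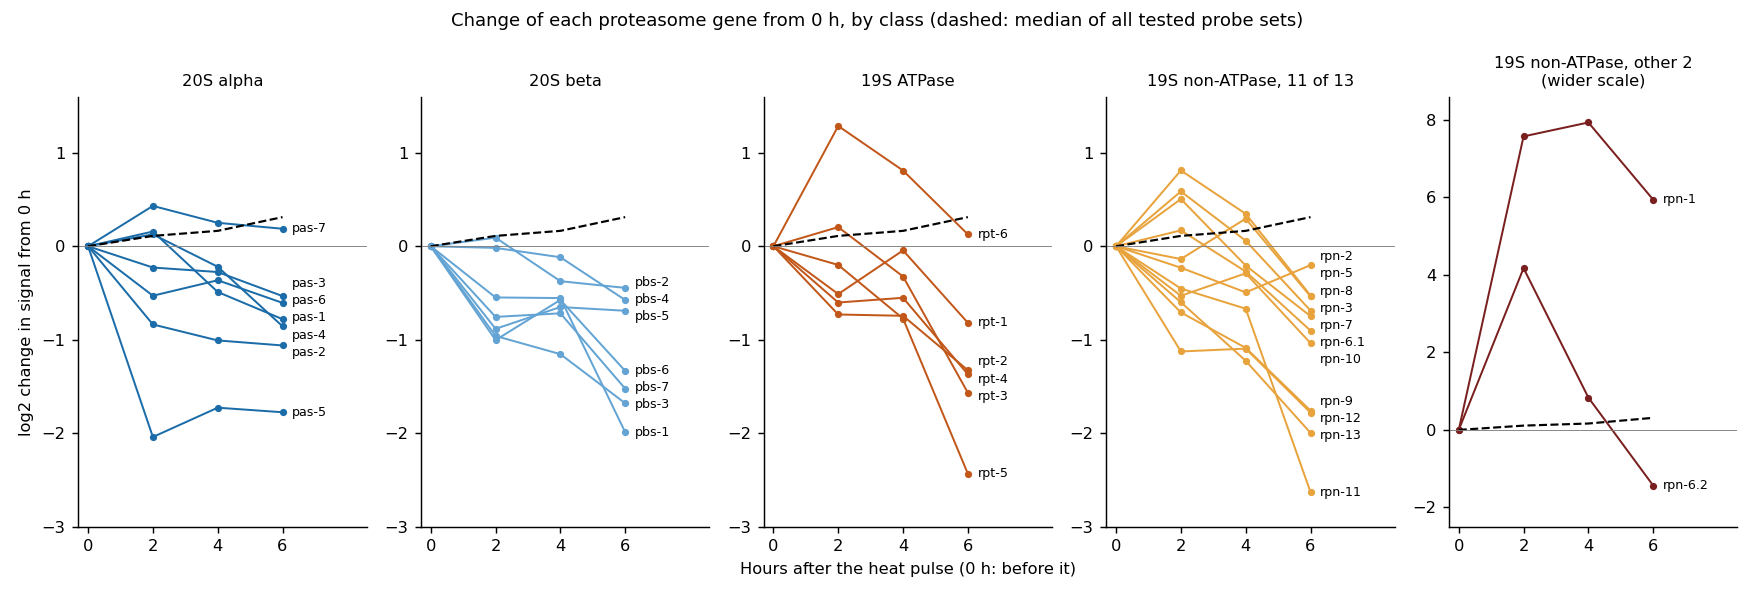
The log2 change in signal from 0 h (y axis) at 2, 4 and 6 h (x axis) is drawn as a line for each gene in panels by class, with the 2 genes of widest range in the last panel on a wider scale and the median of all tested probe sets dashed. At 2 h 10 of 14 core genes and 11 of 19 regulatory genes lay below 0, with *pas-5* lowest at -2.04, and at 6 h 30 of the 33 genes did.

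Most means over time had the same low point, while the time of the highest mean varied. The mean signal was lowest at 6 h for 27 of the 33 genes, or 81.8%, beside 23.8% of all tested probe sets. It was highest at 6 h for 0 genes, beside 34.9% of all. For 17 genes, or 51.5%, the mean was highest at 0 h and lowest at 6 h, beside 10.9% of all. In a further 9 genes, or 27.3%, it was highest at 2 h and lowest at 6 h, beside 8.91% of all. These 9 were *pas-1*, *pas-4*, *pbs-2*, *rpn-3*, *rpn-5*, *rpn-6.1*, *rpn-6.2*, *rpn-7* and *rpt-3*, of which only *rpn-5* and *rpn-6.2* were called as raised at 2 h. The 33 genes do not lie together in the genome: in the RefSeq annotation of assembly WBcel235, which lists all of them, 0 pairs were next to each other or had a single protein-coding gene between them.

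The largest change of any proteasome gene was an increase. The signal of *rpn-1*, a scaffold of the base that docks ubiquitin shuttles, was 322, 258 and 225 at 0 h, 57849.7, 51406 and 43402 at 2 h, 67766, 70707 and 56878 at 4 h, and 15669, 15404 and 17946 at 6 h. No later array comes near the 0 h arrays, and the 6 h arrays lie below those of 4 h. The log2 change was 7.57 ± 0.18 at 2 h (adjusted p = 9.3e-17), or 191-fold, and 5.94 ± 0.18 at 6 h (adjusted p = 9.54e-16), or 61.5-fold. Between 4 and 6 h the gene was lowered, by 1.99 ± 0.18 on the log2 scale (adjusted p = 6.73e-08). The rise at 2 h ranked 27 among 18264 tested probe sets. This is the only probe set for *rpn-1* in the annotation used, its name carries the suffix that the manufacturer gives to sets whose probes can match more than 1 transcript, and whether it read *rpn-1* alone was not tested.

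A transient increase was measured for *rpn-6.2*, a paralog of the lid gene *rpn-6.1*. Its signal was 106, 117 and 58.4 at 0 h, 1718, 1604 and 1548 at 2 h, 140.2, 133 and 221 at 4 h, and 7, 56.2 and 93.2 at 6 h. The 2 h arrays stand far above all others. The log2 change was 4.17 ± 0.69 at 2 h (adjusted p = 9.7e-05), at least 17.01-fold, followed by a decrease of -3.34 ± 0.69 from 2 to 4 h (adjusted p = 0.00182). Over the same interval *rpn-6.1* read 1614 to 1725 at 0 h and 1753 to 2037 at 2 h, a change of 0.17 ± 0.24 that did not pass the test (adjusted p = 0.67). Whether the probes of these paralogs tell their transcripts apart was not tested.

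The last raised gene was *rpn-5*, a lid scaffold subunit. Its signal was 699.9, 511 and 488 at 0 h, 759, 926 and 1339 at 2 h, 657, 632 and 863 at 4 h, and 374, 354 and 439.8 at 6 h. The 2 h arrays lie above and the 6 h arrays below all 0 h arrays. The change at 2 h was 0.81 ± 0.27 (adjusted p = 0.0275), and the call was lost without 0 h replicate B or C or 2 h replicate B or C (adjusted p = 0.0594 to 0.168, limma). It was also lost under quantile normalization (adjusted p = 0.164) and with no variance trend or robust estimation (adjusted p = 0.0743, limma). At 6 h the value of -0.53 ± 0.27 did not pass the test (adjusted p = 0.132).

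**Figure D3:**
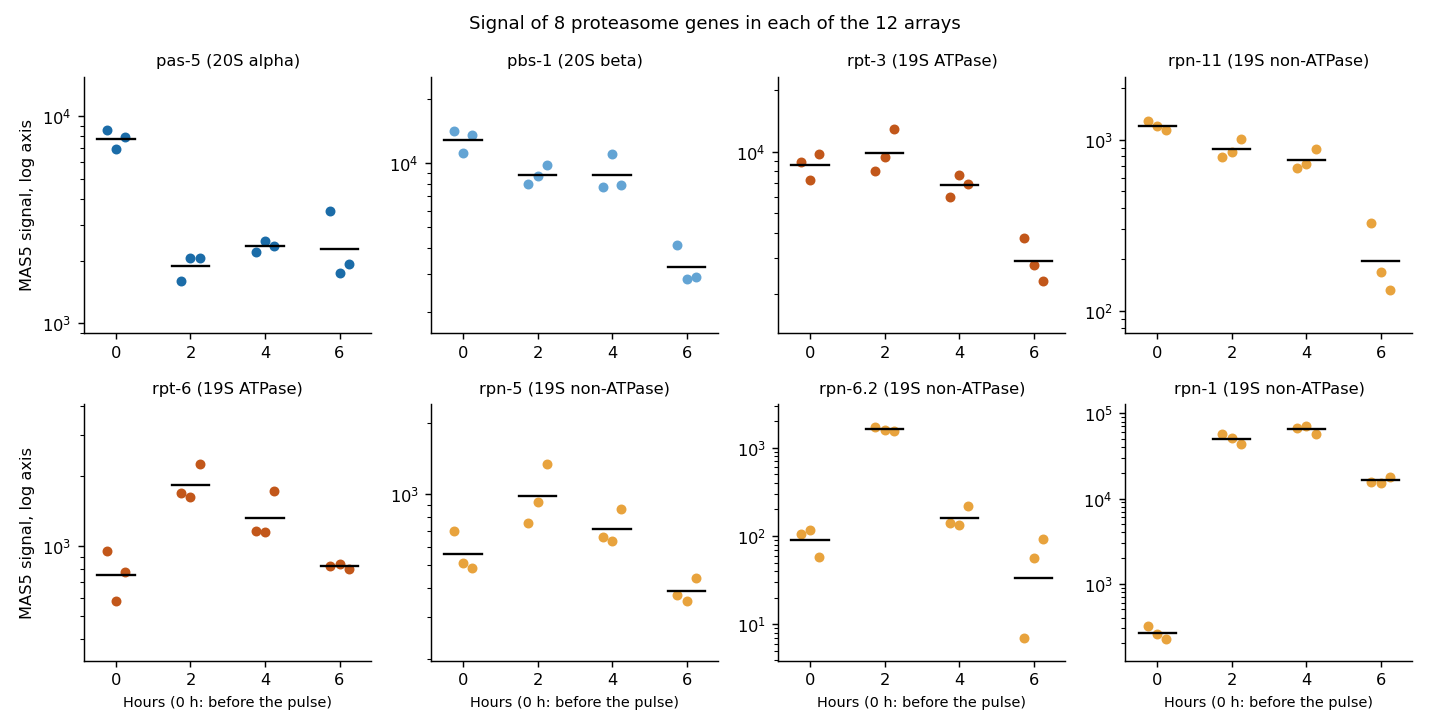
The MAS5 signal of 8 proteasome genes (y axis, log scale) is shown in each of the 12 arrays by hours (x axis), with replicates A, B and C from left to right and a bar at the mean on the log scale. The upper panels fall over the course, with *pas-5* down at 2 h and *rpt-3* and *rpn-11* down at 6 h, and the lower panels hold the 4 genes that were raised at 2 h.

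Core and regulatory particle were also compared array by array, as the mean log2 signal of the core genes minus that of the regulatory genes, set to 0 at the mean of the 0 h arrays. The difference was -0.94, -0.87 and -1.19 in replicates A, B and C at 2 h, -0.67, -0.44 and -0.999 at 4 h, and 0.01, -0.29 and -0.17 at 6 h, while the 0 h arrays spread from -0.05 to 0.07. The 2 and 4 h arrays lay below all 0 h arrays, and those at 6 h overlapped them. The means were -0.999 ± 0.17 (SD, n = 3) at 2 h, -0.70 ± 0.28 at 4 h and -0.15 ± 0.15 at 6 h. The difference shrank without *rpn-1* and *rpn-6.2*. Without them, a choice made after their values were seen, the means were -0.37 ± 0.20, -0.20 ± 0.28 and 0.21 ± 0.09. The 2 h arrays then still lay below all 0 h arrays, those at 4 h overlapped them, and those at 6 h lay above them, so the sign at 6 h depends on the pair. Without the pair, the core mean had changed by -0.50 ± 0.07 at 2 h and -0.98 ± 0.25 at 6 h, and the regulatory mean by -0.13 ± 0.19 and -1.19 ± 0.23.

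**Figure D4:**
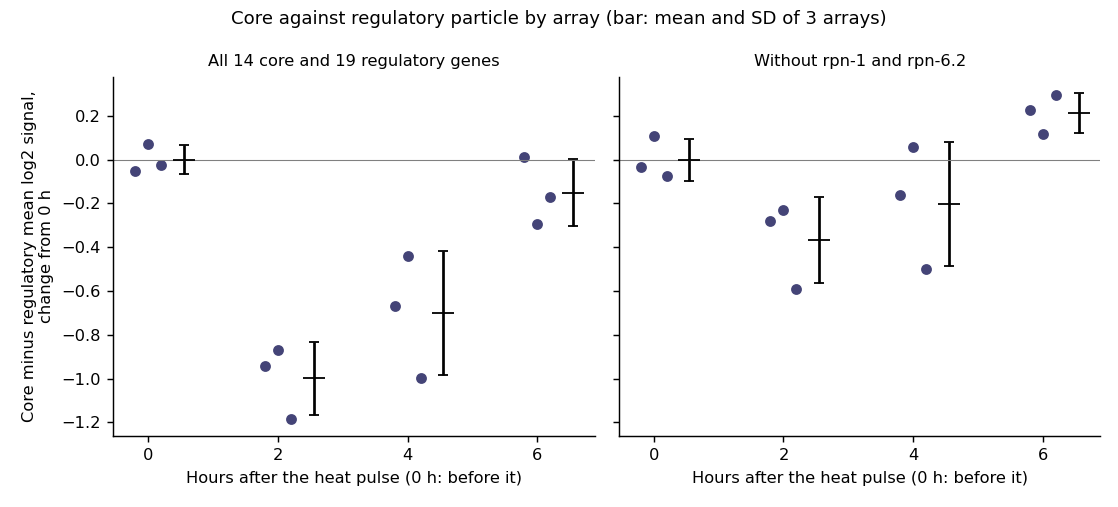
The difference between the mean log2 signal of core and regulatory genes, as a change from the 0 h mean (y axis), is plotted for each array by hours (x axis), with the mean and SD of 3 arrays beside the points, for all genes on the left and without *rpn-1* and *rpn-6.2* on the right. On the left the mean is lowest at 2 h, at -0.999, and on the right it runs from -0.37 at 2 h to 0.21 at 6 h.

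The 6 genes with a further probe set gave 30 pairings of the brighter with the dimmer set over the 5 comparisons. In 7 of these, at least 1 for each gene, a set was called lowered and the other was not, and in 0 were the calls opposite.

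Other genes of the ubiquitin pathway were read to place the subunits in their surroundings, each at its brightest probe set and in the comparison of 6 h with 0 h. Over all tested probe sets 15.6% were lowered and 21.7% raised in that comparison. Among factors that associate with the proteasome 3 of 5 tested genes were lowered and 0 raised. The shuttle *rad-23*, which brings ubiquitinated proteins to the regulatory particle, went from between 2782 and 3213 to between 89.2 and 433, a change of -3.88 ± 0.45 (adjusted p = 7.71e-06). The proteasomal deubiquitinase *usp-14* changed by -1.51 ± 0.25, and *ubh-4*, which also removes ubiquitin at the particle, by -1.22 ± 0.20. At 2 h *ubh-4* was raised, by 1.16 ± 0.20 on the log2 scale, before it was lowered at 6 h. The lid factor *dss-1* was lowered at 2 h, at -1.08 ± 0.29, and its value of -0.49 ± 0.29 at 6 h was not called. For the ubiquilin gene *ubql-1* the brighter set gave -0.02 ± 0.26 and the other was raised by 2.77 ± 0.27.

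The unfoldase CDC-48, which extracts ubiquitinated proteins for degradation, was read with its partners, and 5 of 6 tested genes were lowered and 0 raised. The changes were -1.60 ± 0.32 for *cdc-48.1*, -1.23 ± 0.19 for *npl-4.1* and -1.03 ± 0.20 for *npl-4.2*. Whether probes tell the paralogs of each pair apart was not tested. The COP9 signalosome, which strips Nedd8 from cullins and resembles the lid in its subunits, also had 5 of 6 genes lowered and 0 raised. In it *csn-3* changed by -1.77 ± 0.22, the protease *csn-5* by -1.35 ± 0.17 and *csn-1* by -1.31 ± 0.26. Among cullin ligases 2 of 8 genes were lowered and 1 raised, beside 15.6% and 21.7% over the array. These were the scaffold *cul-1* at -2.74 ± 0.23 and its RING partner *rbx-1* at -2.51 ± 0.23, against *rbx-2*, the RING protein of other cullins, at 0.91 ± 0.19.

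Ubiquitin itself gave both directions. Of 27 listed genes for ubiquitin, its activating enzyme and its conjugating enzymes, 7 had a probe set of their own in the annotation used and 6 were tested, with 3 lowered and 1 raised. The polyubiquitin gene *ubq-1* changed by -1.06 ± 0.18 at its brightest set, while its other set gave -0.30 ± 0.26 and was not called (adjusted p = 0.411). The activating enzyme *uba-1* changed by -1.48 ± 0.25 and the conjugating enzyme variant *uev-1* by -1.66 ± 0.23. The gene *ubq-2*, in which ubiquitin is fused to a ribosomal protein, was raised by 1.84 ± 0.20 (adjusted p = 1.97e-07). Its signal went from between 11757 and 18361 to between 44510 and 63046.

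In nematodes the transcription factor SKN-1 drives proteasome genes when its ER-bound form is processed by PNG-1 and DDI-1. Of 5 genes listed for this control, 1 was lowered and 1 raised at 6 h, beside 15.6% and 21.7% over the array. The protease gene *ddi-1* went from between 8386 and 10405 to between 344 and 582, a change of -4.43 ± 0.22 (adjusted p = 1.13e-12). The ER ubiquitin ligase gene *sel-11* was raised by 1.96 ± 0.30 (adjusted p = 2.09e-05). The brightest set of *skn-1* was raised at 2 h, from between 92 and 222 at 0 h to between 1680 and 2058 at 2 h (log2 change 3.64 ± 1.13, adjusted p = 0.0389). At 6 h it read between 5.2 and 177, and the change of -1.60 ± 1.13 did not pass the test. A dimmer set of *skn-1* was raised at both times, by 4.34 at 2 h and by 1.98 ± 0.67 at 6 h (adjusted p = 0.0259), so the sets differ at 6 h. Among heat shock genes 3 of 7 tested were raised at 6 h and 0 lowered, led by the Hsp70 gene *hsp-1* at 1.82 ± 0.30. At 2 h 1 was raised and 1 lowered, beside 15.5% and 9.55% over the array.

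**Figure D5:**
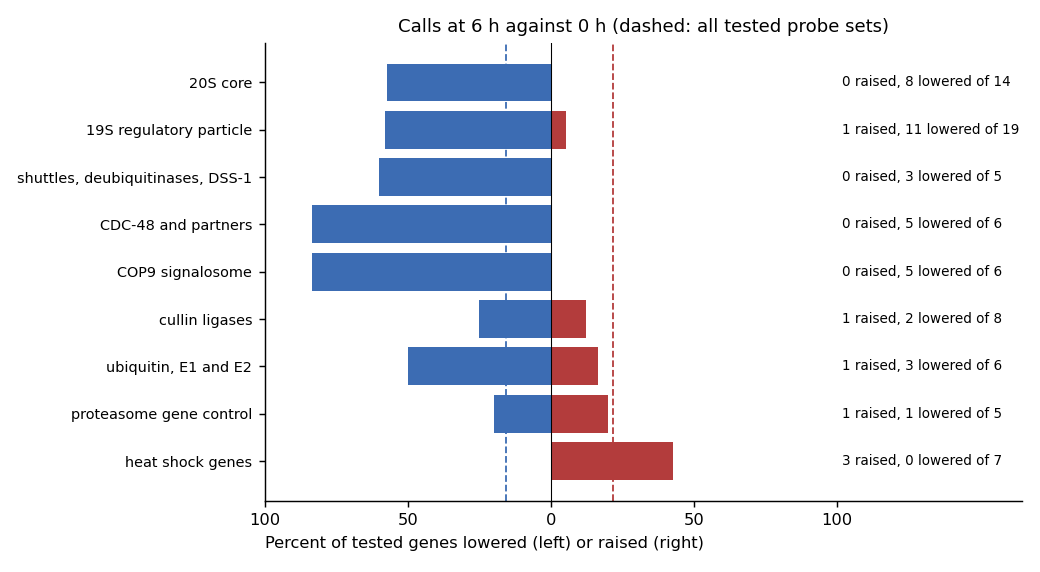
The percent of tested genes lowered (left) or raised (right) at 6 h against 0 h (x axis) is drawn for the core, the regulatory particle and 7 lists of related genes (y axis), with dashed lines at 15.6% and 21.7%, the shares over all tested probe sets. The bars to the left are longest for CDC-48 with its partners and the COP9 signalosome, at 5 of 6 genes each, while those for gene control and cullins stand for 1 of 5 and 2 of 8 genes and that for heat shock genes for 0 of 7.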

How the data were processed

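Total RNA from 12 embryo samples was turned into cDNA, which 20 PCR cycles amplified, and biotin-labelled product was applied to Affymetrix arrays for *C. elegans*, per the labels. The deposited values are MAS5 signal intensity on a linear scale, which the authors scaled on each array to a trimmed mean of 500.2 to 500.3 after trimming the top and bottom 2%. The version of MAS5 was not given in the sources used here.

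From the deposited intensity, log2 values were computed without further normalization. The 77 control probe sets of 22625 were left out. Of the rest, 20766 had a single gene in the annotation, 887 had several and 895 had none; only the first were named. For a test, 3 or more arrays had to exceed 69.7, the reference level, found as the 40th percentile of each array's signals and the median of those 12 values. All 12 arrays were fitted in limma 3.58.1 under R 4.3.3 (with version 1.17.8 of data.table, and figures in Python 3.11.15), with 4 time points as groups, a variance trend and robust estimation, and p values of each comparison were Benjamini-Hochberg adjusted across 18264 probe sets. The fit was also run on simulated data with only increases planted, at 6 h, and the outcome is not reported here. Where an array of a group lay below the reference level, a fold is a bound, computed with dim signals raised to that level.

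Genes shown array by array were the 3 with the largest change at 6 h in each of the classes alpha, beta, ATPase and non-ATPase, the catalytic beta genes, members called against the majority, and members whose probe sets differ in a call. In pathway lists up to 3 called genes with the largest change at 6 h were to be named, and any other gene named was picked with its values in view. The members and lists were chosen with earlier results of these data known. Lists held associated factors, gene control, ubiquitin with E1 and E2, CDC-48, cullins, COP9, heat shock genes, and markers of body wall muscle, pharyngeal muscle, intestine, neurons, epidermis and the germ line. Alternatives covered scaling, dim signals, the test, the probe sets of a gene, the replicate block and each array left out. A search of promoters for motifs was planned and not run, since no sequences were used here. The number of arrays, 3 in each group, limits the precision. In the main fit, p values weigh a change against the spread between samples within groups. That spread was estimated over all groups together, with the variance trend across probe sets, so arrays outside a comparison also bear on its p values.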

Additional observations from a re-analysis of the deposited data

How the results depend on the processing

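The decrease at 6 h kept its direction in every setting, with 16 to 22 proteasome genes lowered when 1 array was left out and 18 to 28 otherwise. Of its 19 calls, 16 held in every planned setting, and *pas-1*, *pas-4* and *rpt-1* were lost in some. Scaling to a common median gave 1 gene raised at 4 h, 23 lowered from 4 to 6 h, core medians of -1.18 at 6 h and -0.57 from 4 to 6 h, and regulatory medians of -1.40 and -1.06. Quantile normalization gave 1 raised at 4 h, a core median of -0.43 at 2 h and a regulatory median of -0.88 at 6 h. With no variance trend or robust estimation, 1 gene was raised at 4 h and 6 were lowered from 4 to 6 h. With no minimum fold, 11 genes were lowered at 2 h and 13 at 4 h. Raising signals to the reference level gave a regulatory median of -0.90 at 6 h. Without *rpn-1* and *rpn-6.2*, 2, 1 and 0 genes were raised at 2, 4 and 6 h, 0 were lowered from 2 to 4 h, and core minus regulatory was -0.37, -0.20 and 0.21. The cause of these shifts was not tested.

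With 1 array left out, 1 to 2 genes were raised at 4 h (1 without 0 h replicate B or 4 h replicate C) and 1 to 2 lowered from 2 to 4 h (2 without 4 h replicate C). The core median ranged from -0.63 to -0.45 at 2 h, from -1.001 to -0.72 at 6 h and from -0.50 to -0.24 from 4 to 6 h. The regulatory median ranged from -0.44 to -0.23 at 4 h, from -1.24 to -0.91 at 6 h, from -0.50 to -0.22 from 2 to 4 h and from -0.93 to -0.69 from 4 to 6 h. Values at 6 h that were never called changed sign for *pas-7* (-0.17 under median scaling, -0.072 under quantile normalization, and from -6.8e-05 to 0.41 with 1 array left out, the lowest without 6 h replicate B), *rpt-6* (-0.23 under median scaling, and from -0.061 to 0.29 with 1 array left out, the lowest without 0 h replicate B) and *rpn-2* (from -0.41 to 0.016 with 1 array left out, the highest without 0 h replicate A).

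The letters of the replicates did not pair the samples: 18 same-letter pairs had correlations of deviations from -0.0258 to 0.0332, and 3 of 12 arrays correlated best with their own letter. With the letter as a replicate block 19 genes were lowered at 6 h, as without it, and 6 at 4 h.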

Other observations

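Genes that neighbour *rpn-1* and *rpn-6.2* in the RefSeq annotation of WBcel235 were read as values, since both genes had larger increases at 2 h than any other subunit. Next to *rpn-1*, *ribo-1* had mean signals of 898 at 0 h and 1513 at 2 h and was not called at 2 or 6 h. At a distance of 2 genes on the other side, T22D1.5 was lowered, from 3888 ± 306 to 162 ± 102 at 2 h (SD, n = 3). At 4 genes on that side, T05A12.4 was raised at 2 h in both of its probe sets, with log2 changes of 1.33 and 2.00, and was not called at 6 h. The gene beyond *ribo-1*, T22D1.3, was raised at 2 h, from 450 ± 97.7 to 848 ± 16.8, and *ruvb-2* was raised at 2 h and lowered at 6 h, with log2 changes of 1.12 and -1.68. Around *rpn-6.2*, R08D7.7 and *pde-2*, at distances of 3 and 4 genes, were raised at 2 h with log2 changes of 2.82 and 1.03 (the other probe set of *pde-2*, at 1.07, was not called). On the same side and next to *rpn-6.2*, F59B2.3 was lowered at 2 h with a log2 change of -2.10. On the other side, *zif-1* was not called at 2 or 6 h, and *rab-6.1* was raised at 6 h in all 3 of its probe sets, with log2 changes of 2.10, 3.32 and 2.03.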
